A study of Sus scrofa with 4 samples.

Results

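Porcine subcutaneous preadipocytes were compared at D8 and at D2 of differentiation in culture, D2 being the end of induction with a hormone cocktail and D8 the last stage sampled. All protein-coding (mRNA) and long non-coding RNA (lncRNA) features with a level of at least 1 FPKM (sequenced fragments scaled to transcript length and library size) in one of the 2 libraries entered the comparison, which kept 9779 of 16192 mRNAs and 753 of 5615 lncRNAs. Circular RNAs (circRNAs) were compared separately, and 1633 of 8623 had 10 or more junction reads at D2 or D8.

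The cells came from the subcutaneous fat of 3 male Erhualian piglets, 5 days old. They were grown to confluence (D0), given dexamethasone, 3-isobutyl-1-methylxanthine and insulin until D2, kept in medium with insulin alone until D4, and fed growth medium from D4 to D8. For each stage 1 library was made from a pool with the same amount of RNA of each piglet, so the 4 libraries hold no replicates. The D2 and D8 libraries therefore differ both in time and in what the medium contained, and stage, medium and library cannot be told apart.

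No test between stages is possible with 1 library per stage, and a gene is called higher or lower when its ratio, with 0.1 added to each FPKM, reached 2-fold. The 95% intervals given for log2 ratios were computed from read numbers without the added 0.1 and cover counting error only. In bulk RNA, fewer cells of a type and less RNA per cell cannot be told apart. The cultures were primary stromal cells, and other cells of the fat depot may have been carried along.

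Dexamethasone activates the glucocorticoid receptor, and 3-isobutyl-1-methylxanthine blocks the phosphodiesterases that break down cyclic AMP. Together with insulin they start a cascade in which CEBPB and CEBPD come first and PPARG and CEBPA follow, after which genes of lipid uptake, synthesis and storage are switched on. Preadipocytes also lose actin stress fibres as they round up, and stop dividing as they mature.

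Of the 9779 mRNAs, 826 (8.45%) were at least 2-fold higher and 518 (5.3%) at least 2-fold lower at D8. The median log2 ratio over all mRNAs was −0.12, with an interquartile range of −0.46 to 0.25. This general shift is the base against which the lists below are read. Rescaling the libraries to equal medians gave 942 mRNAs higher and 387 lower, which moved the share of rises among the calls from 61.5% to 70.9%. The counting intervals excluded no change for all 826 and all 518.

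Ratios also moved with transcript length, as computed from the values. With the mRNAs split by length into 4 groups of equal size, in the group with the shortest transcripts the median log2 ratio was 0.02, and 280 mRNAs were higher and 102 lower. In the group with the longest it was −0.21, and 151 were higher and 155 lower. The part of length in the results below was not tested.

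**Figure D1:**
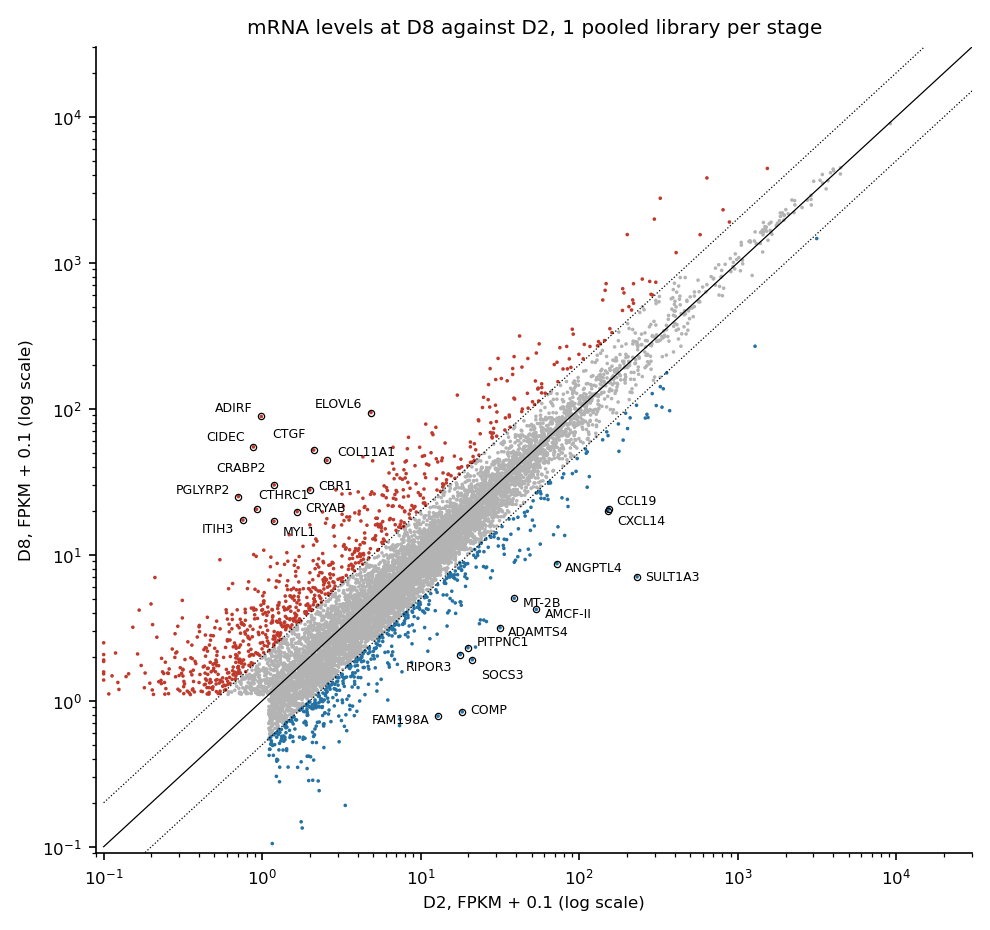
FPKM plus 0.1 of each of the 9779 mRNAs in the D2 library (x axis) and the D8 library (y axis), both on log scales, with 1 point per mRNA. Red points are at least 2-fold higher and blue points at least 2-fold lower at D8, dotted lines mark 2-fold, and the 24 mRNAs with the largest ratios among those reaching 10 FPKM are circled and named; ADIRF goes from 0.887 to 88.3 FPKM and SULT1A3 from 231 to 6.96 FPKM.

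The 12 largest falls among mRNAs of at least 10 FPKM began with SULT1A3, a sulfotransferase of phenols and catecholamines, at 7.16 (D0), 231 (D2), 103 (D4) and 6.96 (D8). It was 32.8-fold lower at D8 than at D2, and its D8 level was close to its D0 level. COMP, a matrix protein of cartilage and tendon, was 21.8-fold lower, from 18.2 FPKM at D2 to 0.739 at D8. ADAMTS4, a protease of aggrecan and other proteoglycans, was 10-fold lower, from 31.5 FPKM at D2 to 3.06 at D8.

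SOCS3, a feedback inhibitor of cytokine signalling, had an FPKM of 7.09 (D0), 21.1 (D2), 11.7 (D4) and 1.81 (D8). ANGPTL4, a secreted inhibitor of lipoprotein lipase, had 19.2 (D0), 72.2 (D2), 57.1 (D4) and 8.59 (D8). Both were highest at D2 among the 4 libraries, and they were 11.1-fold and 8.33-fold lower at D8.

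Among the chemokines, CXCL14 was 7.46-fold lower (154 FPKM at D2 to 20.5 at D8) and CCL19, a ligand of CCR7, was 7.62-fold lower (151 FPKM at D2 to 19.8 at D8). The porcine CXC chemokine AMCF-II had an FPKM of 69 (D0), 53.4 (D2), 6.3 (D4) and 4.12 (D8), so that its D0 level was above its D2 level, unlike those of CXCL14 and CCL19. The metallothionein MT-2B, a metal-binding protein, fell by 2.95 on the log2 scale. The list was completed by FAM198A, the phosphatidylinositol transfer protein PITPNC1 and RIPOR3, at log2 ratios of −4.03, −3.11 and −3.10.

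The 12 largest rises mixed fat-cell genes with matrix and contractile genes. ADIRF, an adipogenesis regulatory factor, had an FPKM of 1.13 (D0), 0.887 (D2), 10.8 (D4) and 88.3 (D8), which is 89.6-fold higher at D8 than at D2, although the D2 value rests on few reads and the interval of its log2 ratio ran from 5.27 to 8.52. CIDEC, which fuses lipid droplets, had 0.271 (D0), 0.78 (D2), 5.01 (D4) and 54.6 (D8) and was 62.1-fold higher. ELOVL6, the elongase of saturated fatty acids, had 3.67 (D0), 4.75 (D2), 39.1 (D4) and 94 (D8) and was 19.4-fold higher. Each of them was higher at every later stage from D2 on.

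A different order of levels was seen in CTGF, a matricellular protein, which had an FPKM of 44.5 (D0), 2.01 (D2), 6.7 (D4) and 52 (D8). CRABP2, which carries retinoic acid, had 32.8 (D0), 1.09 (D2), 1.11 (D4) and 29.9 (D8), and the small heat-shock protein CRYAB had 32.2 (D0), 1.56 (D2), 1.56 (D4) and 19.6 (D8). In these genes the D8 level was 24.6-fold, 25.2-fold and 11.9-fold that of D2, and the D0 library was also high. The fast myosin light chain MYL1 had the same order (FPKM 8.67 at D0, 1.09, 0.992 and 16.8 at D2, D4 and D8).

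The remaining rises were COL11A1, a fibrillar collagen, at 17.3-fold (2.46 FPKM at D2 to 44.1 at D8), CTHRC1, a secreted protein of repairing tissue, at 22.2-fold (0.821 FPKM at D2 to 20.4 at D8), and ITIH3, a carrier protein of hyaluronan, at 22.8-fold (0.656 FPKM at D2 to 17.2 at D8). The carbonyl reductase CBR1 was 13.9-fold higher and PGLYRP2, an amidase that cleaves peptidoglycan, 35.3-fold higher.

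26 lists of genes were then read, of which 25 had measured mRNAs. The median of 6 lists lay at least 0.5 above the median of all mRNAs on the log2 scale, and that of 3 lists at least 0.5 below it. With at least 1 FPKM required in both libraries these were 5 and 2 lists. Some genes stand on more than one list. The counts per list stand beside the shares over all 9779 mRNAs, of which 8.45% were higher and 5.3% lower by 2-fold. Of all mRNAs, 40.8% had a log2 ratio above 0.

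**Figure D2:**
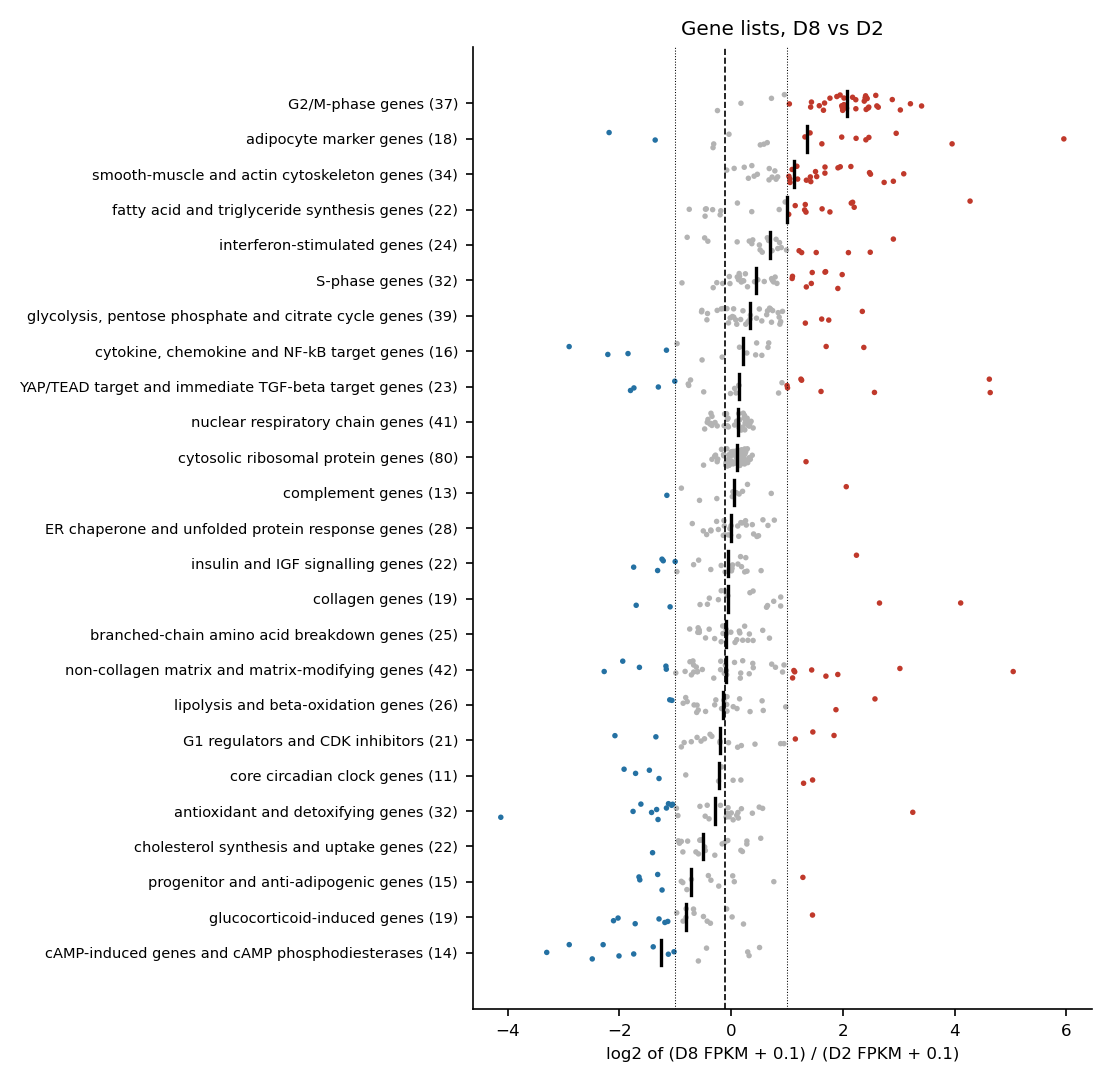
log2 ratio of D8 over D2 FPKM (x axis, 0.1 added to each value) for every measured mRNA of the 25 gene lists (y axis, number of mRNAs in parentheses), 1 point per mRNA, ordered by the list median (black bar). Red and blue points passed 2-fold, the dashed line is the median of all 9779 mRNAs (−0.12), and the list medians run from −1.26 for the cAMP list to 2.07 for the G2/M list.

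Glucocorticoid-induced genes were lower at D8. Of 19 measured, 6 were at least 2-fold lower and 1 higher, and the median log2 ratio was −0.80. KLF15, a transcription factor switched on by the receptor, had an FPKM of 0.657 (D0), 5.2 (D2), 5.39 (D4) and 1.2 (D8). GLUL, which makes glutamine, had 35.5 (D0), 288 (D2), 412 (D4) and 127 (D8). SGK1, a kinase induced by steroids and serum, had 9.64 (D0), 57.2 (D2), 47.5 (D4) and 26 (D8). KLF15 was 4.07-fold, GLUL 2.27-fold and SGK1 2.19-fold lower at D8 than at D2, and GLUL was still above its D0 level at D8.

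The metallothionein MT1A (4.3-fold), the secreted protein CRISPLD2 (3.29-fold) and the clock repressor PER1 (2.45-fold) were the other 3 that were lower. Several classic targets did not reach 2-fold. The receptor chaperone FKBP5 had 4.88 (D0), 61.2 (D2), 77.4 (D4) and 38.6 (D8), with a log2 ratio of −0.66. TSC22D3, also called GILZ, had 3.26 (D0), 33.5 (D2), 23.6 (D4) and 31.7 (D8), with a log2 ratio of −0.08. Both thus remained far above their D0 levels 6 days after the cocktail ended.

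The early adipogenic factors CEBPD and CEBPB had log2 ratios of −0.86 and −0.81, with CEBPD at 140.4 (D0), 299 (D2), 178 (D4) and 165 (D8). KLF9 was at −0.97, ZBTB16 at −0.80, DUSP1 at −0.67, HSD11B1, which regenerates active glucocorticoid, at −0.49, GPX3 at −0.43 and MAOA at −0.37. ERRFI1 and PDK4 lay at 0.02 and 0.22. METTL7A was the only listed gene that was higher by 2-fold (2.75-fold, 7.54 FPKM at D2 to 20.9 at D8), and it was also high at D0 (15.7). FAM107A, TFCP2L1, MERTK, SLC19A3 and CDKN1C stayed under 1 FPKM at D2 and D8, and MT2A and SERPINA3 had no feature of that name.

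The cAMP list was the lowest of all lists. Of 14 measured genes, 9 were at least 2-fold lower and none was higher, with a median log2 ratio of −1.26. After rescaling to equal medians, 8 were lower, PDE3A no longer being among them. Over the genes with at least 1 FPKM in both libraries the median was −0.80. RGS2, an inhibitor of G-protein signalling induced by cAMP, had an FPKM of 3.08 (D0), 25.9 (D2), 10.9 (D4) and 3.39 (D8). The phosphodiesterase PDE7B had 1.54 (D0), 7.27 (D2), 3.81 (D4) and 0.649 (D8) and PDE4B had 1.72 (D0), 7.03 (D2), 5.84 (D4) and 1.67 (D8). These genes were 7.45-fold, 9.85-fold and 4.02-fold lower at D8, and were highest at D2 among the 4 libraries.

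PDE4D was 5.6-fold and PDE3A 2.03-fold lower, and PDE8A had a log2 ratio of −0.44. PDE3B, the phosphodiesterase of fat cells that insulin activates, had 0.501 (D0), 1.61 (D2), 4.13 (D4) and 2.03 (D8), with a log2 ratio of 0.32. Of the phosphodiesterases measured, 4 were thus lower by 2-fold and 2 were not. PDE4A, PDE4C and PDE10A lay under 1 FPKM in both libraries.

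Among immediate early transcription factors, NR4A3 was 4.89-fold lower, SIK1, a kinase that restrains CREB coactivators, 3.35-fold, EGR1 2.63-fold and FOS 2.18-fold. JUNB was at −0.59, CREM at 0.30 and ATF3 at 0.51. NR4A2, FOSB, PPARGC1A, DIO2 and AREG stayed under 1 FPKM at D2 and D8, and NR4A1 and CREB3L3 had no feature of that name.

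**Figure D3:**
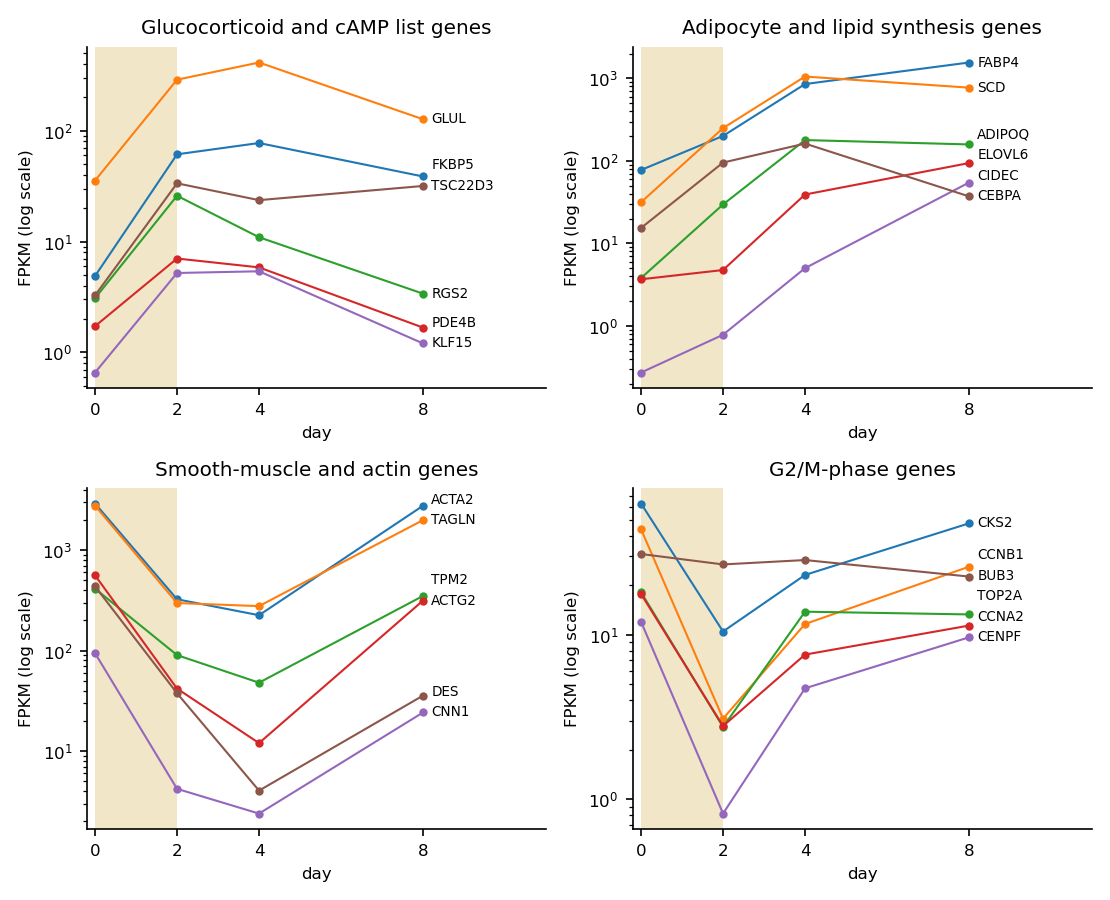
FPKM (y axis, log scale) of 24 list members in the D0, D2, D4 and D8 libraries (x axis, day), 1 pooled library per point and no error bars. The shaded band marks the days with the full cocktail; RGS2 and PDE4B peak at D2, CIDEC is highest at D8, ACTA2 is lowest at D4 (225 FPKM), and CENPF is lowest at D2 (0.816 FPKM).

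Most adipocyte genes were higher at D8. Of 18 marker genes measured, 10 were at least 2-fold higher and 2 lower, and the summed level went from 709 to 2799 FPKM. FABP4, the fatty acid carrier of fat cells, had an FPKM of 77.5 (D0), 201 (D2), 853 (D4) and 1557 (D8). The hormone ADIPOQ had 3.8 (D0), 29.6 (D2), 179 (D4) and 158 (D8). FABP4 was 7.76-fold and ADIPOQ 5.33-fold higher at D8 than at D2, and ADIPOQ had its highest level at D4.

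Lipid droplet proteins CIDEA (5.53-fold), PLIN1 (2.5-fold) and PLIN4 (15.5-fold) were higher, as were the insulin-responsive glucose transporter SLC2A4 (4.72-fold), the fatty acid transporter CD36 (2.66-fold), FABP5 (3.95-fold) and GPD1 (3.09-fold), which supplies glycerol phosphate. Lipoprotein lipase (LPL) and hormone-sensitive lipase (LIPE) had log2 ratios of 0.59 and 0.52. PLIN1 had 2.28 (D0), 36.1 (D2), 215 (D4) and 90.3 (D8), so its D8 level was below that of D4.

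PPARG, the nuclear receptor at the centre of the cascade, had an FPKM of 2.95 (D0), 26.4 (D2), 51.9 (D4) and 25.8 (D8), and the D8 to D2 ratio was −0.04 on the log2 scale (95% counting interval −0.10 to 0.03). CEBPA, which acts with PPARG, had 15.4 (D0), 95.3 (D2), 162 (D4) and 37.1 (D8) and was 2.56-fold lower. PCK1, the enzyme of glyceroneogenesis, had 1.4 (D0), 5.19 (D2), 9.39 (D4) and 1.06 (D8) and was 4.54-fold lower. Each had its highest level at D4, and at D8 PPARG and CEBPA were above and PCK1 below their D0 levels. The hormone gene LEP, on the list of adipocyte markers, lay between 0.0269 and 0.314 FPKM in the 4 libraries.

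Of 22 genes of fatty acid and triglyceride synthesis, 11 were at least 2-fold higher and none lower, with a median log2 ratio 1.12 above that of all mRNAs. The desaturase SCD had an FPKM of 31.5 (D0), 249 (D2), 1053 (D4) and 772 (D8). DGAT2, which makes triglyceride from diglyceride, had 0.152 (D0), 10.1 (D2), 57.7 (D4) and 47.1 (D8). The malic enzyme ME1, a source of NADPH, had 4.23 (D0), 7.3 (D2), 26 (D4) and 33.4 (D8). SCD was 3.09-fold, DGAT2 4.61-fold and ME1 4.52-fold higher at D8 than at D2, and only ME1 of these had its highest level at D8.

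ACSS2, which activates acetate, was 4.44-fold, FASN, the fatty acid synthase, 3.41-fold, ACLY, which makes acetyl-CoA from citrate, 2.49-fold and the lipogenic factor SREBF1 2.53-fold higher. The other desaturases were not: FADS1 lay at −0.33 and FADS2 at −0.46. DGAT1 (−0.44) and LPIN2 (−0.75) were also below their D2 levels without reaching 2-fold.

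Genes of lipid use showed no common shift. Of 26 genes of lipolysis and β-oxidation, 2 were higher and 2 lower, and the median log2 ratio of −0.15 was close to that of all mRNAs. The 2 higher ones were FABP3 (FPKM 153 at D0, 638, 3254 and 3805 at D2, D4 and D8) and the monoglyceride lipase MGLL (3.67-fold). The carnitine palmitoyltransferases CPT2 and CPT1A, which move fatty acids into mitochondria, were 2.14-fold and 2.08-fold lower, and after rescaling to equal medians neither passed 2-fold. PLIN2, the droplet coat of many cell types, lay at −0.79.

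Cholesterol genes leaned lower, with a median log2 ratio of −0.50 over 22 genes and 17 of 22 under 0, where 40.8% of all mRNAs lay above 0. Only 1 of the 22 was lower by 2-fold (4.5%, against 5.3% of all mRNAs) and none was higher. SQLE, ACAT2 and FDPS lay at −0.94, −0.92 and −0.89. Of 22 insulin and IGF signalling genes, 5 were lower and 1 higher. IGF1 had an FPKM of 18.8 (D0), 49.1 (D2), 44.8 (D4) and 14.6 (D8), and the insulin receptor (INSR) had 1.11 (D0), 3.61 (D2), 5.68 (D4) and 1.39 (D8). IGF1, INSR, IGF2, FOXO3 and IRS2 were lower (3.35-fold, 2.49-fold, 2.36-fold, 2.32-fold and 2-fold, IRS2 not after rescaling to equal medians), whereas the binding protein IGFBP5 was 4.74-fold higher (FPKM 29 at D0, 5.98, 6.05 and 28.7 at D2, D4 and D8).

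Among 15 progenitor and anti-adipogenic genes, 4 were lower and 1 higher, with a median log2 ratio of −0.71. The median was −0.41 over those with at least 1 FPKM in both libraries and −0.17 with no filter, both less than 0.5 below the median of all mRNAs. PDGFRA, a receptor that marks fat-cell progenitors, had an FPKM of 75.8 (D0), 189 (D2), 149 (D4) and 60.8 (D8). SNAI2 and TWIST2, transcription factors of mesenchymal cells, had 22.7 (D0), 57.2 (D2), 82 (D4) and 24.2 (D8) and 30 (D0), 60.1 (D2), 52.6 (D4) and 24.1 (D8). PDGFRA, EBF2, TWIST2 and SNAI2 were 3.1-fold, 3.14-fold, 2.49-fold and 2.35-fold lower than at D2, and PDGFRA and TWIST2 were also below their D0 levels. KLF4 was 2.44-fold higher.

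Contractile and actin genes were mostly higher at D8. Of 34 measured, 21 were at least 2-fold higher, none was lower, 33 had a log2 ratio above 0, and the summed level went from 6948 to 15598 FPKM. Smooth-muscle actin (ACTA2) had an FPKM of 2907 (D0), 324 (D2), 225 (D4) and 2762 (D8). TAGLN, an actin-binding protein of smooth muscle, had 2767 (D0), 297 (D2), 277 (D4) and 1987 (D8), and ACTG2 had 562 (D0), 41.9 (D2), 12 (D4) and 315 (D8). These were 8.52-fold, 6.68-fold and 7.49-fold higher at D8 than at D2, were lowest at D4, and came close to the D0 level only for ACTA2.

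Calponin CNN1 was 5.64-fold, LMOD1 5.57-fold and the tropomyosins TPM2 and TPM1 3.88-fold and 3.2-fold higher. The cytoplasmic actins ACTB and ACTG1 were 2.28-fold and 2.07-fold higher. The filamin FLNA and the intermediate filament desmin (DES) were not (0.06 and −0.08), and DES at 436 (D0), 37.7 (D2), 4.05 (D4) and 35.7 (D8) did not return to its D0 level. MYH11, the myosin heavy chain that defines smooth muscle, lay at 0.35 FPKM at D2 and 0.289 at D8. The pericyte and smooth-muscle marker list, with all 8 genes in the files and none at 0, summed to 456 (D0), 124 (D2), 84.1 (D4) and 61.9 (D8) FPKM, led by DES at D0 and by ABCC9 (FPKM 10.3 at D0, 73.3, 68.6 and 15.4 at D2, D4 and D8) at D2 and D4. Its other genes went both ways. CSPG4 (0.338 FPKM at D2 to 2.72 at D8), RGS5, NOTCH3 and MCAM had log2 ratios of 2.68, 0.90, 0.56 and 0.20, and KCNJ8 one of −0.96. RGS5 and MCAM stayed under 1 FPKM in each library.

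YAP/TEAD and TGF-β target genes split. Of 23 measured, 8 were higher and 4 lower. Besides CTGF, the higher ones included ANKRD1 (24.9-fold, 0.0675 FPKM at D2 to 4.07 at D8), the receptor kinase AXL (5.92-fold, 3.09 FPKM at D2 to 18.8 at D8) and CYR61 (3.05-fold). AMOTL2 (7.69 FPKM at D2 to 15.5 at D8) and AJUBA (1.96 FPKM at D2 to 4.06 at D8) were just past the limit. The BMP-responsive inhibitors of differentiation ID1 (FPKM 93.9 at D0, 178, 303 and 51 at D2, D4 and D8) and ID2 were 3.48-fold and 3.34-fold lower, as were TGFBI and SMAD6 (2.47-fold and 2.01-fold). After rescaling to equal medians SMAD6 did not pass 2-fold and INHBA did, which gave 9 higher and 3 lower.

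Collagen genes showed no common shift. Of 19, 2 were higher and 2 lower, 10.5% each, against 8.45% and 5.3% of all mRNAs. Their median log2 ratio of −0.06 was close to that of all mRNAs. After rescaling to equal medians 3 were higher and 1 lower, COL4A2 losing and COL15A1 gaining its call. COL4A1 and COL4A2, the basement membrane chains, were 3.25-fold and 2.13-fold lower, with COL4A1 at 68.8 (D0), 332 (D2), 373 (D4) and 102 (D8). COL8A1 and COL11A1 were 6.31-fold and 17.3-fold higher. The most abundant collagens moved little, COL1A2 having a log2 ratio of −0.23 and COL3A1 one of 0.34.

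Of 42 other matrix genes, 8 were higher and 5 lower (19.0% and 11.9%), with a median log2 ratio of −0.09, close to that of all mRNAs. The gelatinase MMP2 had an FPKM of 99.3 (D0), 371 (D2), 481 (D4) and 96.8 (D8) and its activator MMP14 had 125 (D0), 271 (D2), 288 (D4) and 86.9 (D8). MMP2, MMP14 and MMP9 were 3.84-fold, 3.12-fold and 4.83-fold lower, together with FMOD and the inhibitor TIMP1 (2.24-fold and 2.23-fold). Higher genes included the collagenase MMP13 (33.1-fold, 0.11 FPKM at D2 to 6.88 at D8), periostin POSTN (8.13-fold, FPKM 11.1 at D0, 6.59, 21.6 and 54.2 at D2, D4 and D8), elastin ELN (3.76-fold, FPKM 22.6 at D0, 6.77, 1.41 and 25.7 at D2, D4 and D8) and THBS1 (3.24-fold). Elastin was lowest at D4, whereas POSTN was lowest at D2.

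Mitotic genes had the highest median of all lists. Of 37 G2/M genes, 33 were at least 2-fold higher and none lower, and the median log2 ratio was 2.07. Cyclin B1 (CCNB1) had an FPKM of 43.8 (D0), 3.09 (D2), 11.6 (D4) and 25.9 (D8). CENPF, a kinetochore protein, had 12 (D0), 0.816 (D2), 4.72 (D4) and 9.64 (D8), and the topoisomerase TOP2A had 18.1 (D0), 2.75 (D2), 13.8 (D4) and 13.3 (D8). They were 8.17-fold, 10.6-fold and 4.7-fold higher at D8 than at D2, and in each the D0 level was the highest of the 4 libraries. The 4 G2/M genes within 2-fold were BUB3, NUSAP1, STMN1 and MAD2L1.

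Replication genes moved less. Of 32 S-phase genes, 9 were higher and none lower, with a median of 0.45 (0.28 over those with at least 1 FPKM in both libraries), the highest being CDC45 (3.97-fold) and RRM2, the ribonucleotide reductase subunit (3.76-fold). The sliding clamp PCNA had 68.1 (D0), 59 (D2), 118 (D4) and 65.2 (D8), a log2 ratio of 0.14. MCM3 and MCM4, subunits of the replicative helicase, were 2.74-fold and 3.23-fold higher, and both were higher at D4 than at D8.

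Of 21 G1 regulators and CDK inhibitors, 3 were higher and 2 lower. Cyclin D1 (CCND1) and CCND3 were 2.76-fold and 2.22-fold higher and the CDK4/6 inhibitor CDKN2D 3.59-fold higher. The growth-arrest gene GAS1 (FPKM 16.1 at D0, 40.8, 31.4 and 9.59 at D2, D4 and D8) and MYC (FPKM 3.67 at D0, 10.3, 14.3 and 3.99 at D2, D4 and D8) were 4.23-fold and 2.54-fold lower. CDKN1A lay at −0.61 and CDKN1B at −0.20.

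Interferon-stimulated genes were higher, though mostly by less than 2-fold. Of 24, 6 were at least 2-fold higher and none lower, 21 had a log2 ratio above 0, and the median was 0.70. IFIT1 had an FPKM of 0.658 (D0), 6.8 (D2), 8.61 (D4) and 15.9 (D8) and ISG15, a ubiquitin-like modifier, had 29.7 (D0), 93 (D2), 77.1 (D4) and 155 (D8). GBP1 (FPKM 6.57 at D0, 1.52, 2.37 and 9.01 at D2, D4 and D8), RSAD2, IFIT2, CMPK2, PARP9 and IFIT1 passed 2-fold, from 2.33-fold for IFIT1 to 7.49-fold for RSAD2. The signal transducers STAT2 and IRF9 lay below their D2 levels (−0.79 and −0.47).

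Cytokine and NF-κB genes had 2 members higher and 4 lower of 16. Interleukin 6 (IL6) had an FPKM of 5.97 (D0), 8.71 (D2), 2.35 (D4) and 2.35 (D8) and was 3.59-fold lower, and CXCL14, CXCL12 and SOD2 were also lower. The monocyte chemokine CCL2 (FPKM 54.7 at D0, 6.5, 6.65 and 21.4 at D2, D4 and D8) was 3.25-fold and IL1A 5.19-fold higher. Of 13 complement genes, C4A was higher (4.18-fold) and C1QC lower (2.22-fold), with C1S at 0.05 and C7 at 0.72.

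Antioxidant and detoxifying genes leaned lower, with 10 of 32 at least 2-fold lower and 1 higher. Heme oxygenase (HMOX1) had an FPKM of 39.7 (D0), 116 (D2), 83.4 (D4) and 34.2 (D8) and NQO1 had 22.7 (D0), 90.4 (D2), 78.2 (D4) and 35.8 (D8). HMOX1, NQO1, the peroxide-splitting catalase CAT and the glutathione synthesis enzyme GCLC were 3.37-fold, 2.52-fold, 2.48-fold and 2.17-fold lower. Their regulator NFE2L2 lay at −0.07. ADH1C was 9.53-fold higher (FPKM 0.0264 at D0, 2.82, 19.2 and 27.7 at D2, D4 and D8). After rescaling to equal medians, 8 genes of the list were lower.

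Of 11 measured clock genes, 4 were lower and 2 higher. The repressors CRY2, PER1 and NR1D2 and the output factor TEF were 3.77-fold, 2.45-fold, 2.76-fold and 3.27-fold lower. The activators ARNTL (FPKM 3.92 at D0, 2.04, 2.95 and 5.17 at D2, D4 and D8) and NPAS2 were 2.46-fold and 2.75-fold higher. The hour of sampling is not given in the sources used here.

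In 4 lists almost no gene passed 2-fold. None of 41 nuclear respiratory chain genes, 25 genes of branched-chain amino acid breakdown or 28 ER chaperone and unfolded protein response genes passed 2-fold in either direction, and 1 of 80 cytosolic ribosomal protein genes did (RPL22L1, 86.4 FPKM at D2 to 219 at D8). Their median log2 ratios were 0.13, −0.09, 0.00 and 0.11. Of 39 loci for glycolysis, the pentose phosphate pathway and the citrate cycle, 4 were higher and none lower, namely the glucose transporter SLC2A1 (FPKM 20.1 at D0, 3.46, 7.81 and 18.1 at D2, D4 and D8), ALDOC, hexokinase HK2 and LDHA (5.1-fold, 3.36-fold, 3.08-fold and 2.51-fold). None of the 13 mitochondrially encoded mRNAs on a further list was matched by name.

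Markers of other cell types were read beside these results. Endothelial markers (8 of 8 in the files) summed to between 4.45 and 8.58 FPKM in the 4 libraries, with CDH5 and VWF at 0 at both D2 and D8. Most of this sum came from EGFL7 (FPKM 1.64 at D0, 5.18, 6.68 and 3.11 at D2, D4 and D8) and PECAM1 (FPKM 2.56 at D0, 1.14, 1.70 and 1.87 at D2, D4 and D8). Macrophage markers (8 of 8) summed to between 4.55 and 9.54, with PTPRC under 0.1 in each library. Between D2 and D8, CSF1R went from 0.104 to 0, CD14 from 5.64 to 2.78, AIF1 from 0.273 to 1.05 and TYROBP from 0.155 to 0.818. The 2 lymphocyte, 4 skeletal muscle and 4 Schwann markers found, of 8, 8 and 6 listed, summed to at most 0.14, 0.579 and 1.36. Of the skeletal muscle genes, TNNT3, MYOG and CKM were at 0 at D8, and ACTA1 went from 0.0771 at D2 to 0.460 at D8. Their part in the results was not tested.

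Mesothelial and epithelial markers, 6 of 8 listed, summed to 48.0 (D0), 111 (D2), 183 (D4) and 280.2 (D8) FPKM. Nearly all of this was the keratin KRT5 (FPKM 44.4 at D0, 107, 179.5 and 275 at D2, D4 and D8), and EPCAM, CDH1, WT1 and UPK3B stayed under 1 in each library. Of the labelled cell, 8 of 8 preadipocyte markers were in the files and summed to 640 (D0), 987 (D2), 976 (D4) and 672 (D8) FPKM, with CD34 and TCF21 under 1 in each library. The part of a keratin-expressing population in the D8 values was not tested.

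Long non-coding RNAs were more spread out than mRNAs. Of 753, 130 (17.3%) were at least 2-fold higher and 184 (24.4%) lower at D8, with a median log2 ratio of −0.30. Annotated lncRNAs had 45 higher and 29 lower of 285, with a median of −0.13. The intergenic and antisense lncRNAs that the authors assembled from these reads leaned lower, with 53 higher and 95 lower of 275 intergenic ones (median −0.47) and 32 higher and 60 lower of 193 antisense ones (median −0.39). At 5 FPKM or more in one library, 16 of 161 lncRNAs were higher and 22 lower, so most calls came from weakly expressed transcripts. With no filter on FPKM, 841 of 4700 lncRNAs were higher and 806 lower, with a median log2 ratio of 0.01. The lean of lncRNAs as a whole towards lower levels was thus not seen without the filter.

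**Figure D4:**
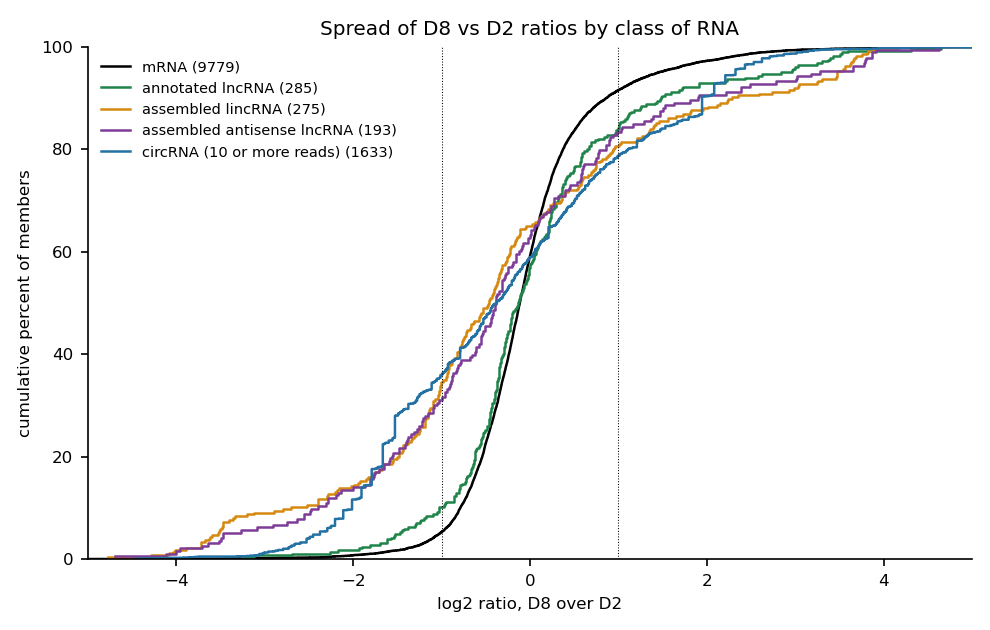
Cumulative percent of members (y axis) against the log2 ratio of D8 over D2 (x axis) for 9779 mRNAs, 285 annotated lncRNAs, 275 assembled lincRNAs, 193 assembled antisense lncRNAs and 1633 circRNAs, with dotted lines at 2-fold. At the left dotted line the curves stand at 5.3% for mRNAs, 10.2% for annotated lncRNAs, 34.5% for lincRNAs, 31.1% for antisense lncRNAs and 35.9% for circRNAs; steps in the circRNA curve are circRNAs listed at 0 in 1 library.

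Among lncRNAs of at least 5 FPKM, the largest fall was that of MSTRG.52728 (chr5:73559746-73579650, Sscrofa11.1), antisense to PPHLN1, at 4.44 (D0), 17.3 (D2), 8.02 (D4) and 2.85 (D8) FPKM. MSTRG.68172 (chr7:9917545-9932517) had 30.6 (D0), 66 (D2), 54.6 (D4) and 13.5 (D8). They were 5.9-fold and 4.87-fold lower at D8, and both were highest at D2. MSTRG.4076, MSTRG.98172 and MSTRG.58731 were 4.92-fold, 4.49-fold and 4.08-fold lower. PPHLN1 itself had a log2 ratio of −0.09.

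The largest rise was that of LOC110256661 (chr14:23088184-23089674), at 1.8 (D0), 0.375 (D2), 0.601 (D4) and 5.36 (D8) FPKM, 11.5-fold. MSTRG.22314, antisense over KEAP1, had 48.8 (D0), 1.81 (D2), 1.79 (D4) and 17.2 (D8), and LOC100514834 had 39.5 (D0), 1.01 (D2), 0.0889 (D4) and 8.63 (D8). In these the D0 library was high and D2 and D4 were low, as it also was in the intergenic MSTRG.155149 on chromosome X (4.87-fold higher at D8 than at D2). KEAP1 had a log2 ratio of −0.40.

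LOC102163508 (chr5:16006878-16008530) overlaps the adipocyte gene GPD1 on the opposite strand and had 0.248 (D0), 0.916 (D2), 1.99 (D4) and 5.4 (D8) FPKM, 5.41-fold higher at D8, with GPD1 at 0.787 (D0), 5.08 (D2), 15.4 (D4) and 15.9 (D8) and 3.09-fold. The libraries kept strand, but whether the counting used it is not given in the sources used here, so the reads of the pair cannot be told apart. Across 219 pairs of an lncRNA and an mRNA that overlap on opposite strands, the lncRNA was lower in 53 (47 different lncRNAs) and the mRNA as well in 3 of these, and the lncRNA was higher in 35 (32 different lncRNAs) and the mRNA as well in 2. Both counts of mRNAs lie near the shares over all 9779 mRNAs, of which 5.3% were lower and 8.45% higher. As a description across these pairs, which share libraries and in part reads, Pearson's r of the log2 ratios was 0.15 and Spearman's rho 0.22.

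CircRNA levels were deposited as SRPBM (spliced reads scaled to the reads mapped in the library), from which the junction reads, those that cross the back-splice, could be read as whole numbers. The D2 library held 43989 junction reads and the D8 library 37480, and the summed SRPBM differed by −0.02 on the log2 scale. Of the 1633 circRNAs with 10 or more reads, 347 (21.2%) were at least 2-fold higher and 587 (35.9%) lower, with 0 reads set to 3. A limit of 10 reads stands for 72.7 SRPBM at D2 and 84.0 at D8, and 1261 circRNAs met it at D2 and 942 at D8. With a limit of 5 reads, 977 were higher and 1039 lower of 3771. The 95% counting intervals excluded no change for 281 of the 347 and 470 of the 587.

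Listings at 0 carried many of these calls. At D2 177 and at D8 293 of the 1633 were listed at 0, with a median of 12 reads in the other library. Among the 1163 with reads in both, 170 were higher and 294 lower and the median log2 ratio was −0.21. The authors kept circRNAs with at least 2 junction reads, and for 3 of the 470 listed at 0 another circRNA had both ends within 20 bases. At D2 31 and at D8 21 circRNAs were listed at 0 beside 10 or more reads in each of the other 3 libraries. Whether a circRNA listed at 0 had no reads or was missed in the calling cannot be told apart from the deposited values, and the folds given below as at least hold only where 0 is a true count. They also leave out the counting error of the library that had reads.

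Among circRNAs with 30 or more reads in one library, the largest rise was in a gene whose mRNA was also higher. The circRNA ssc_circ_0000844 (chr1:82875117-82891579) lies in ME1 and had 20 (D0), 0 (D2), 98 (D4) and 125 (D8) junction reads. Against 3 reads this is at least 48.2-fold higher, and ME1 mRNA was 4.52-fold higher. The circRNAs of ZRANB1 (114, 0, 66 and 53 reads, in the same order), EDC3 (109, 0, 49 and 50), RSRC1 (100, 0, 39 and 40) and KATNBL1 (23, 0, 15 and 40) were at least 20.4-fold, 19.3-fold, 15.4-fold and 15.4-fold higher. Their host mRNAs had log2 ratios of −0.15, −0.21, 0.18 and 0.69, so the D2 library alone stood apart for these circRNAs.

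Among the largest falls, ssc_circ_0002437 (chr4:93738637-93747422) in the chaperonin gene CCT3 had 101 (D0), 77 (D2), 96 (D4) and 0 (D8) reads, which is at least 22.2-fold lower than at D2. CCT3 mRNA had a log2 ratio of 0.08. A circRNA without a host gene on its strand, ssc_circ_0008516 on chromosome X, had 80, 73, 65 and 0 reads. In both, the D8 library alone was at 0.

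Conversely, ssc_circ_0003658 at the SLA-1 locus (0, 68, 0 and 0 reads) and ssc_circ_0007592 in METTL5 (0, 60, 0 and 0) were seen at D2 alone. SLA-1 belongs to the class I major histocompatibility genes, whose near-identical copies make the 64155 bases spanned by this circRNA uncertain. The circRNA ssc_circ_0005536 in IFT88 had 8, 35, 25 and 2 reads and was 15.1-fold lower at D8 than at D2.

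For 1515 circRNAs a host mRNA of the comparison contained both ends on the same strand, from 1031 genes. Of the 321 that were higher, 20 had a host mRNA that was higher by 2-fold and 7 one that was lower. Of the 530 that were lower, 23 had a host that was lower and 29 one that was higher. The median log2 ratio of the hosts was −0.11 for the higher circRNAs and −0.15 for the lower ones. Among 46 circRNAs whose host mRNA was lower by 2-fold, 50.0% were lower and 15.2% higher. Of 75 with a host higher by 2-fold, 38.7% were lower and 26.7% higher, and of 1394 with a host within 2-fold, 34.3% were lower and 21.1% higher. Pearson's r between the log2 ratios was 0.06 and Spearman's rho 0.04, as a description over circRNAs that share libraries and in part hosts.

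**Figure D5:**
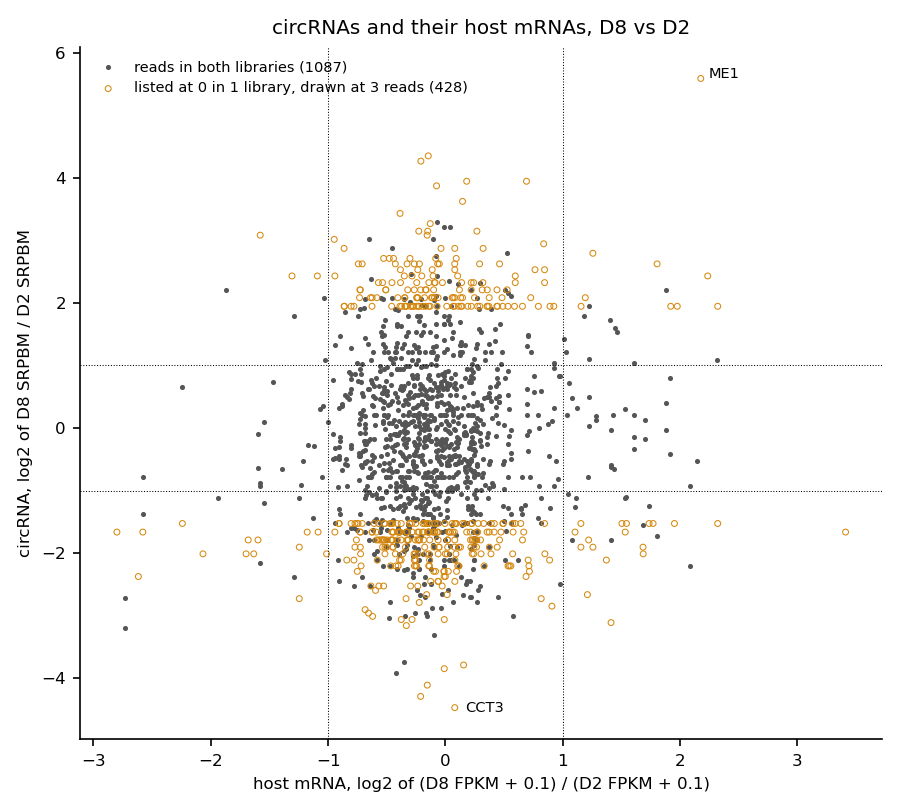
log2 ratio of D8 over D2 for 1515 circRNAs (y axis, SRPBM) against that of their host mRNA (x axis, FPKM plus 0.1), 1 point per circRNA, with dotted lines at 2-fold. Filled points had reads in both libraries (1087) and open points were listed at 0 in 1 library and drawn at 3 reads (428); most points lie between the vertical lines at every height, and the circRNA of ME1 stands at the top right.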

How the data were processed

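Total RNA from 1 pooled sample of 3 piglets per stage (D0, D2, D4 and D8) was depleted of rRNA and sequenced as strand-specific libraries. The authors aligned reads to the pig genome (Sscrofa11.1) with HISAT2 2.0.5, and used BWA and CIRI for circRNAs, keeping those with at least 2 junction reads. The authors deposited FPKM values for mRNAs and lncRNAs, normalized to transcript length and library size. For circRNAs the deposited signal is SRPBM, junction reads scaled by the reads mapped with BWA. Both stand in 1 column, told apart by biotype. The files list 31567 features, and 23 of the mRNAs have a date in place of the gene name, kept as listed.

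The log2 ratio of D8 over D2 was computed with 0.1 added to FPKM, over features with FPKM of at least 1 in one of the 2 libraries, and 2-fold was called without a test. Whole reads behind FPKM were recovered as the smallest numbers that fit all 4 values of a gene, for 22944 of 22944 features, on library sizes derived from read counts in the study's supplementary lists. The procedure was tested on simulated data. These reads set the 95% intervals (exact binomial). The SRPBM values correspond to 137634430 mapped reads at D2 and 119037090 at D8, where 1 junction read is 7.27 and 8.40 SRPBM and a count of 0 allows up to 3 reads (21.8 and 25.2 SRPBM). Reads are not independent molecules, so intervals and floors cover counting error only. The host of a circRNA was the smallest protein-coding gene of its strand around both ends.

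The members, the 26 gene lists, the marker lists and the alternatives were chosen with earlier results of these data known. Named by rule were the 12 largest rises and falls of mRNAs with FPKM of at least 10 and a gene symbol, 5 of lncRNAs with FPKM of at least 5, 5 of circRNAs with at least 30 reads, 3 in each direction per list with FPKM of at least 5, and all of the glucocorticoid and cAMP lists. Other genes were named after their values were seen. Alternatives were other pseudocounts, filters, fold limits and scalings. Python 3.11.15 with numpy 2.4.6, pandas 2.3.3 and scipy 1.17.1 was used. A few genes of the lists are not reported here by name.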

Additional observations from a re-analysis of the deposited data

Results flagged for a closer look

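Features outside the mRNA, lncRNA and circRNA classes were not part of the comparison, and 683 of them had more than 3 reads at D2 or D8, the limit that a count of 0 allows. With FPKM of at least 1 as well, these held 244 tRNA genes, 75 miRNA genes, 30 transcribed pseudogenes and 25 other pseudogenes. Of the tRNA genes, 49 were at least 2-fold higher and 48 lower at D8, with a median log2 ratio of −0.09. Of the miRNA genes, 20 were higher and 19 lower, with a median of 0.04. The pseudogenes had 4 higher and 2 lower, and the transcribed pseudogenes 4 higher and 1 lower. Near-identical copies of tRNA genes and pseudogenes may share reads, and short transcripts are poorly captured in such libraries, so single members are not given.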

How the results depend on the processing

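No paired analysis was possible because each stage has 1 pooled library, and for the same reason no library could be left out. The direction held in all 102 alternatives computed for the mRNAs and lncRNAs named by size of change, but these could not have changed it. Pseudocounts keep the sign of a ratio, filters and fold limits leave it as it is, and rescaling moved log2 ratios by about 0.12. Among alternatives for lists, the direction held in all 54 for the 9 lists with a median at least 0.5 from that of all mRNAs. These 9 lists were picked by their medians in these same data. For the reasons just given, pseudocounts and rescaling could hardly have changed their direction, so only the filters could. Of the 96 alternatives for the other 16 lists, 8 changed the sign of the median, in 5 lists. The insulin and IGF median of −0.05 became 0.01 with FPKM of at least 1 in both libraries, 0.02 with at least 5 in one and 0.06 after rescaling, and the collagen median of −0.06 became 0.14 with no filter and 0.06 after rescaling. Rescaling also moved other matrix genes from −0.09 to 0.02, branched-chain amino acid breakdown from −0.09 to 0.03 and ER chaperones from −0.0046 to 0.11. Against the median of all mRNAs, 2 alternatives in 2 lists (other matrix genes and branched-chain amino acid breakdown, with no filter) changed side. Counts depended on the limits. For mRNAs, higher and lower counts were 520 and 347 with FPKM of at least 1 in both libraries, 435 and 268 with at least 5 in one, 1324 and 849 with no filter, 424 and 150 at 3-fold, and 560 and 266 with 1 added to FPKM. For lncRNAs they were 25 and 40 with at least 1 in both, 16 and 22 with at least 5 in one, 841 and 806 with no filter, 86 and 100 at 3-fold, and 72 and 80 with 1 added. For circRNAs they were 977 and 1039 with 5 or more reads and 71 and 145 with 20 or more. Fewer or more features entered with each filter. The host mRNA was on the same side of 0 as the circRNA for 55.0% of 851 called circRNAs and, with 20 or more reads, for 59.0%. Of the 851, 530 were lower, and only 40.8% of all mRNAs lay above 0. Unlinked signs would thus also agree in a majority, and no expected share was computed. Leaving out the 18 features of the mitochondrial sequence, chosen after seeing the data, gave 826 and 515 mRNAs. Low levels limit the lncRNA and circRNA ratios, and a circRNA listed at 0 may have been missed in the calling.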

Other observations

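On the mitochondrial sequence, 18 features carried the protein-coding label although they are named only by a number, and none of them was at least 2-fold higher at D8. Of the 18, 3 were lower. The feature at positions 2274 to 3844 had an FPKM of 108 (D0), 324 (D2), 921 (D4) and 141 (D8). The one at positions 1246 to 2205 had 64.3, 202, 650.4 and 73.0. Both were highest at D4 and 2.29-fold and 2.76-fold lower at D8 than at D2. The feature at positions 2274 to 3844 has a length of 1571 bases and the one at 1246 to 2205 of 960 bases. The others have lengths of 32 to 75 bases. All 18 were kept among the mRNAs as labelled. Whether they are mRNAs was not tested, nor was the part of the rRNA depletion in their levels.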
